A study of Danio rerio with 20 samples.

Results

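The comparison was between sp7+ and sp7- cells sorted from the regenerating caudal fin of adult zebrafish at 4 days post amputation (dpa). Its members were the 2 RNA-seq libraries of sp7+ cells and the 2 of sp7- cells at 4 dpa, chosen by their labels, 4 of the 20 libraries of the series. All fish were of the strain Tg(sp7:EGFP), in which regulatory sequence of sp7 drives a green fluorescent protein. At 4 dpa the regenerate distal to the amputation plane was cut off, regenerates of many fish were pooled for each replicate, the pool was digested to single cells, and the cells were sorted by fluorescence into a green (sp7+) and a non-green (sp7-) gate. The sp7- population was therefore every other cell of the same regenerate and not 1 cell type. The paper states that not every regenerating osteoblast is marked by sp7, so the sp7- gate can also hold cells of that lineage. Fluorescent protein can outlast the transcript, so the gate need not match the sp7 mRNA of each cell. The same 2 populations from the uninjured fin (0 dpa), again with 2 libraries each, were used to see where the difference at 4 dpa was not the same as before injury. Fin and blastema were digested by different protocols, so day, tissue and digestion cannot be told apart in that second comparison.

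Osteoblasts line the bony rays of the fin and secrete their matrix. After amputation, mature osteoblasts near the stump lose part of their differentiated character, divide, enter the blastema and later lay down new bone. Sp7 (also called Osterix) is a zinc finger transcription factor that acts downstream of Runx2 in bone-forming cells. The other cells of a regenerate include a layered epidermis whose basal layer signals to the tissue below, fibroblast-like blastema mesenchyme, vessels, leukocytes, nerves and pigment cells.

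The libraries at 4 dpa held 37316746 to 50312755 counts over 32105 genes, and 18641 genes had enough counts in the 8 sorted libraries to be tested. Levels are given as CPM, a gene's count scaled to a fixed normalised library size, which can be compared between libraries for 1 gene but not between genes of different length. Fold changes are sp7+ over sp7-, with a positive log2 value where sp7+ cells were higher. The error given after ± is an approximate standard error (n = 2 libraries a group), derived and not reported by edgeR. It is the absolute log2 value divided by the square root of its F statistic in edgeR's quasi-likelihood test against no difference. A gene was called when its difference exceeded 2-fold by edgeR's quasi-likelihood test, at an adjusted p (Benjamini-Hochberg, over all genes tested) below 0.05. Each replicate was a separate pool of fish, but with 2 libraries a group the p-values rest on an error shared across the 8 sorted libraries. In these bulk samples, fewer cells of a type and less RNA per cell cannot be told apart.

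The sort was checked with sp7 itself (ENSDARG00000019516), since the fluorescent protein is not among the genes counted. sp7 stood at 74.1 and 113 CPM in the sp7+ libraries and at 1.38 and 1.17 CPM in the sp7- libraries. Both sp7+ libraries lay far above both sp7- libraries, by 6.19 ± 0.31 on the log2 scale or 73.0-fold (adjusted p = 2.38e-07). This agreement with the labels is a check of the gate and not a result.

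Of the 18641 genes tested, 1681 were called at 4 dpa, or 9.02%. The calls were uneven in direction, with 1095 genes (5.87%) higher in sp7+ cells and 586 (3.14%) higher in sp7- cells. These shares are the background for the counts of each gene list. The calls were also uneven in size, as 632 of the genes higher in sp7+ cells differed by more than 8-fold against 70 of those higher in sp7- cells. The median log2 fold change over all genes tested was 0.01. In all 1681 called genes both libraries of one population lay above both of the other, which was also true of 62.9% of the genes tested. Leaving out any 1 of the 4 libraries at 4 dpa, which leaves 1 library in its group, lowered the count of calls in each direction. The calls higher in sp7- cells fell to 309 and 318 without sp7- replicates 1 and 2 and to 291 and 348 without sp7+ replicates 1 and 2.

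**Figure D1:**
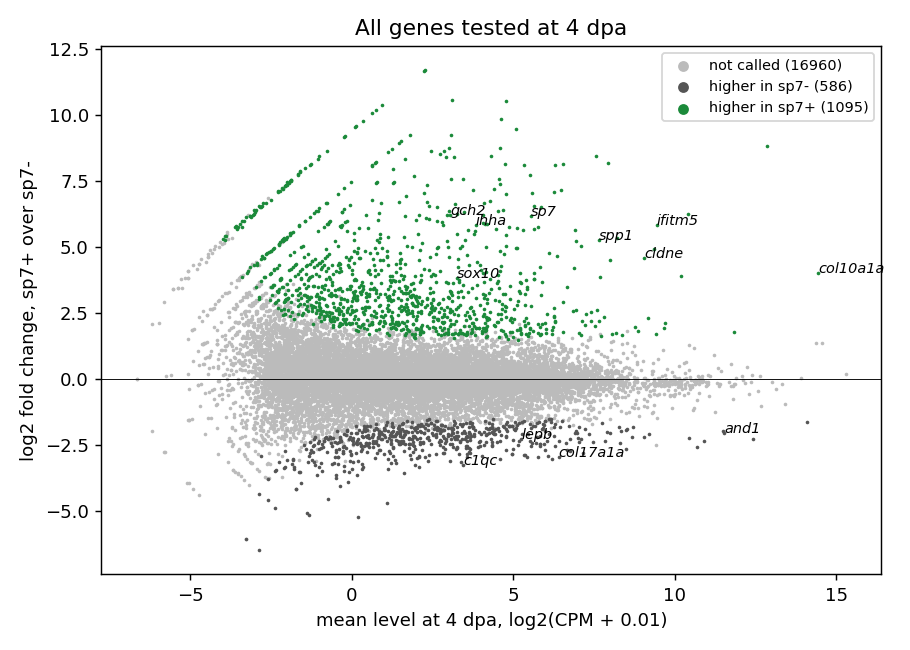
Each point is 1 of the 18641 genes tested, with the mean level at 4 dpa on the x axis, as log2(CPM + 0.01), and the log2 fold change of sp7+ over sp7- cells on the y axis. The 1095 green points (called higher in sp7+) reach far higher than the 586 dark points (called higher in sp7-) reach low, and the diagonal lines at the upper left are genes with a few counts or none in the sp7- libraries.

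The 10 genes with the largest fold changes toward sp7+ cells, among those at 10 CPM or more, were mostly unnamed loci with almost no reads in sp7- cells. In 6 of them each sp7- library had at most 3 counts, so a fitted fold change depends on the prior count and a ratio of counts with its counting interval is more direct. CU571315.3 had 1302 and 579 counts in sp7+ cells against 1 and 0 in sp7- cells, a depth-scaled ratio of 2146 (95% interval for counting error only, 385 to 84808). zgc:163079 had 4791 and 1407 counts against 1 and 3, a ratio of 1768 (690.1 to 6490). For irg1l the counts were 1550 and 393 against 2 and 1, a ratio of 739 (252 to 3586). si:dkey-162h11.2 and si:dkey-239b22.1 were at 62.6 and 73.5 and at 65.7 and 31.2 CPM in sp7+ cells, and all 4 values in sp7- cells were between 0.0777 and 0.124 CPM. The group also held col10a1, described with the bone matrix.

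The 10 genes with the largest fold changes toward sp7- cells, among those at 10 CPM or more, were smaller in effect. Some rarer genes, such as she described below, differed more. Among the 10 were genes known from leukocytes, endothelium and basal epidermis, but which cells the transcripts came from was not tested. c1qc, a chain of the complement component C1q made by macrophages, was at 2.1 and 2.04 CPM in sp7+ cells and at 21.1 and 18.6 CPM in sp7- cells, a log2 fold change of -3.26 ± 0.29 (adjusted p = 4.48e-05). NCKAP1L, a haematopoietic regulator of the actin cytoskeleton, was at 3.84 and 3.75 against 32.2 and 25.4 CPM (-2.92 ± 0.26). plvapb, which encodes a protein of fenestrated endothelium, was at 2.86 and 2.63 against 24.2 and 18 CPM (-2.94 ± 0.34). The 2 basal epidermal genes among these 10, col17a1a and krtt1c19e, are described with the epidermis. BX539325.1 had nearly the values of nog1 in every library, and since reads over overlapping genes were counted for each of them, the pair may rest on the same reads.

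Among transcription factors of the osteoblast lineage, 4 of 24 genes tested were higher in sp7+ cells and none was higher in sp7- cells. Over all genes the shares were 5.87% and 3.14%. The list median was 0.20. The 4 included sp7 itself, on whose reporter the cells were sorted, so its call is not a result. mef2cb, a MADS box factor, was at 64.4 and 73.5 CPM in sp7+ cells against 6.26 and 4.58 CPM in sp7- cells (3.67 ± 0.35, adjusted p = 5.71e-05). Its replicates were close together in each population. msx2a, a homeobox gene, was called at low levels, 2.32 and 1.34 against 0.404 and 0.511 CPM, but its adjusted p of 0.041 rose to 0.239, 0.138 and 0.36 without sp7- replicate 1, sp7- replicate 2 and sp7+ replicate 1.

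The other named regulators were not called. runx2a, which acts upstream of sp7, was at 14.4 and 20.7 CPM in sp7+ cells and at 6.90 and 5.93 CPM in sp7- cells. Its libraries did not overlap and the test against no difference gave an adjusted p of 0.00229, but its log2 fold change of 1.45 ± 0.28 was not called against a 2-fold change (adjusted p = 0.149). dlx5a, a homeobox gene of the early bone lineage, was at 23.0 and 18.7 CPM against 21.3 and 20.7 CPM, a difference of -0.01. msx1b, a homeobox gene used as a blastema marker, was at 105 and 122 against 125 and 108 CPM (-0.03 ± 0.25). sox9a, the skeletal factor best known from cartilage, was at 12.2 and 17.7 against 21.4 and 21.2 CPM (-0.51 ± 0.27, not called). Thus for dlx5a and msx1b the libraries of the 2 populations interleaved.

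**Figure D2:**
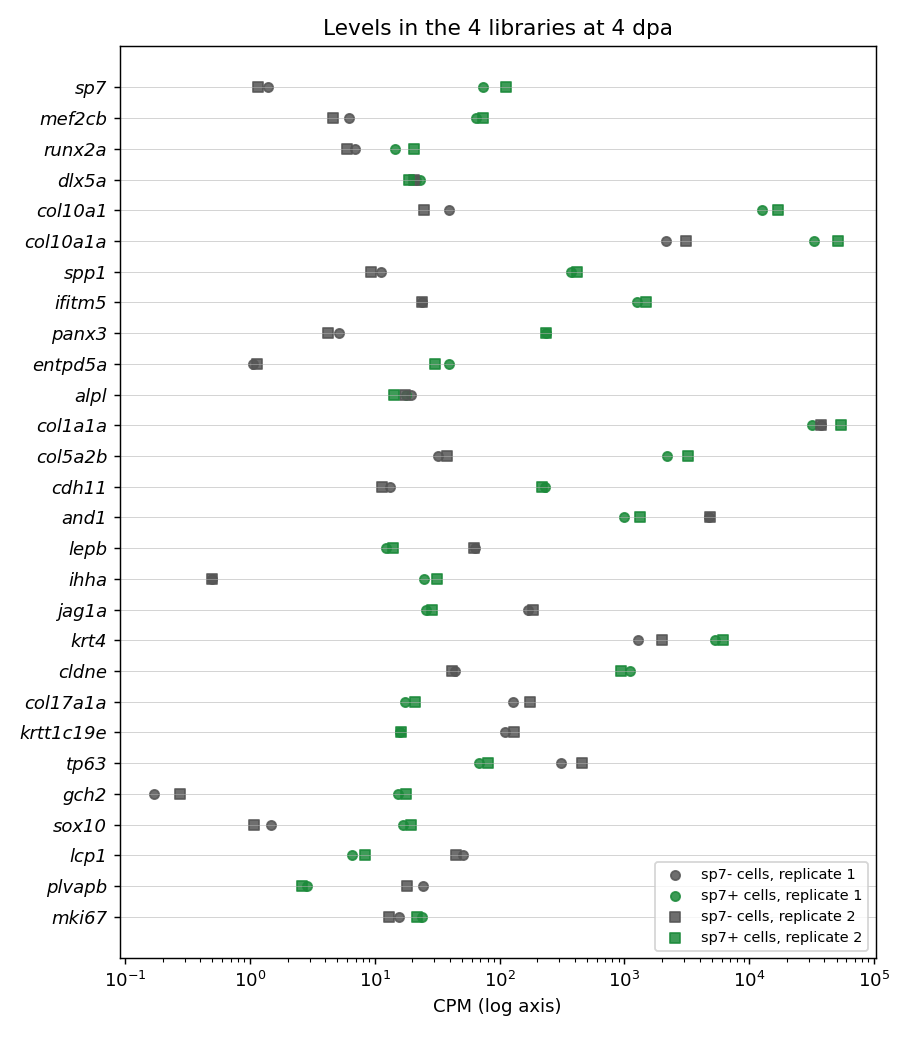
Level of selected genes in each of the 4 libraries at 4 dpa, on a log axis in CPM, with sp7+ cells in green, sp7- cells in grey, circles for replicate 1 and squares for replicate 2. sp7, spp1, ifitm5, panx3 and ihha separate widely toward sp7+ cells, dlx5a, alpl and col1a1a overlap, and and1, lepb, jag1a, col17a1a and tp63 separate toward sp7- cells.

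Many matrix and mineralization genes of bone were higher in sp7+ cells. Of 36 tested, 16 were higher in sp7+ cells and 1 was higher in sp7- cells, against 5.87% and 3.14% of all genes. The other 19 were not called, and the median log2 fold change was 0.99. Summed over the list, the level was 56810 and 78208 CPM in sp7+ cells and 8825 and 10467 CPM in sp7- cells. ifitm5, a membrane protein of osteoblasts that is mutated in a form of human brittle bone disease, was at 1262 and 1474 CPM against 24.0 and 24.0 CPM (5.83 ± 0.46, adjusted p = 6.21e-06). spp1, which encodes osteopontin, was at 376 and 419 against 11.3 and 9.36 CPM, a difference of 38.4-fold (adjusted p = 7.8e-06). panx3, a channel protein of skeletal cells, was at 235 and 237 against 5.13 and 4.22 CPM (5.66 ± 0.49). For these 3 genes the sp7+ replicates were within a narrow band and all sp7- values were more than an order of magnitude lower.

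Several mineralization genes were higher in sp7+ cells too. entpd5a, an ecto-nucleotidase needed for bone mineralization in zebrafish, was at 39.4 and 30.1 CPM in sp7+ cells and at 1.06 and 1.13 CPM in sp7- cells (4.99 ± 0.45, adjusted p = 2.49e-05). scpp1, of the secretory calcium-binding phosphoprotein family, was at 47.4 and 24.8 against 0.575 and 0.657 CPM (5.87 ± 0.59). bglap, which encodes osteocalcin, a marker of mature osteoblasts, was at 5.21 and 3.24 against 0.217 and 0.347 CPM (3.92 ± 0.76, adjusted p = 0.00954). Its adjusted p was 0.0742 without sp7- replicate 1 and 0.0665 without sp7+ replicate 1. alpl, tissue-nonspecific alkaline phosphatase, was close to equal in the gates, at 17.9 and 14.2 against 19.4 and 17.3 CPM (-0.19 ± 0.32), and its libraries overlapped.

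The 1 gene of this list higher in sp7- cells was sost, which encodes sclerostin, an inhibitor of Wnt signalling that mammalian osteocytes secrete. It was at 0.947 and 0.998 CPM in sp7+ cells and at 6.49 and 8.42 CPM in sp7- cells, 7.66-fold higher in sp7- cells (adjusted p = 0.000488).

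Type X collagen took a large share of the reads of sp7+ cells. col10a1a was at 33135 and 51242 CPM in sp7+ cells against 2133 and 3104 CPM in sp7- cells (4.01 ± 0.52, adjusted p = 0.000523). A second gene, col10a1, was at 12547 and 16880 CPM against 39.3 and 25 CPM (8.84 ± 0.64, adjusted p = 2.47e-06). Type X collagen is a marker of hypertrophic cartilage in mammals and is made by osteoblasts in teleosts. The 10 most abundant genes of a library held 22.4% and 28.3% of the counts in sp7+ cells and 19.2% and 19.7% in sp7- cells.

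Among fibrillar and fibril-associated collagens, 3 of 21 were higher in sp7+ cells and 2 were higher in sp7- cells, with a median of 0.27. Over all genes the shares were 5.87% and 3.14%, and counts this small are not read as a result about the list. col1a1a, a chain of type I collagen and the main protein of bone and of loose connective tissue, was at 31933 and 54502 CPM against 37370 and 37727 CPM. Its sp7+ libraries lay on either side of both sp7- libraries (0.20 ± 0.39), and the sign of the difference turned to -0.16 without sp7+ replicate 2. By contrast col5a2b, a chain of the type V collagen that joins type I fibrils, was at 2174 and 3234 CPM against 32.0 and 38.0 CPM, 77.2-fold higher in sp7+ cells (adjusted p = 2.69e-06). col11a2 was at 1742 and 2677 against 117 and 181 CPM (3.89 ± 0.45), and col27a1a at 253 and 417 against 53.9 and 54.9 CPM (2.62 ± 0.37). Toward sp7- cells, col9a1a was at 4.25 and 5.65 against 28.1 and 24.0 CPM (-2.40 ± 0.24, adjusted p = 0.000321). col5a3b was at 154 and 295 against 855 and 1064 CPM (-2.09 ± 0.33, adjusted p = 0.0103), and its adjusted p was 0.071 without sp7- replicate 2 and 0.135 without sp7+ replicate 1. In all of these collagens sp7+ replicate 2 was above sp7+ replicate 1.

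Of 35 genes of fin mesenchyme and blastema, 2 were higher in sp7+ cells and 4 were higher in sp7- cells, against 5.87% and 3.14% of all genes, so the count toward sp7+ cells was near the background. The list median was -0.46, and the summed level was 2819 and 3110 CPM in sp7+ cells against 7927 and 7888 CPM in sp7- cells. The actinodins are structural proteins of the actinotrichia, the fine fibres at the tip of the fin. and1 was at 991 and 1323 CPM in sp7+ cells and at 4722 and 4811 CPM in sp7- cells (-2.04 ± 0.40, adjusted p = 0.0321). Its call was lost when any 1 of the 4 libraries was left out, with adjusted p-values of 0.103, 0.0947, 0.238 and 0.089 without sp7- replicates 1 and 2 and sp7+ replicates 1 and 2. and2 showed the same order at 202 and 211 against 1175 and 1165 CPM (-2.50 ± 0.60). It was not called in the main fit (adjusted p = 0.0502) or with DESeq2. With the inferred replicate pairs as a block the adjusted p was 1.16e-05.

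lepb, a leptin gene that is induced in regenerating fin and heart, was at 12.4 and 14.0 against 63.7 and 62.8 CPM (-2.26 ± 0.24, adjusted p = 0.000498). aldh1a2, which makes retinoic acid in the blastema, was at 12.3 and 9.93 against 28.5 and 28.7 CPM. Its difference of -1.36 ± 0.28 was not called against a 2-fold change (adjusted p = 0.251), while the test against no difference gave 0.00398. The 2 genes higher in sp7+ cells encode adhesion proteins. cdh11, a cadherin of mesenchyme and osteoblasts, was at 233 and 219 against 13.3 and 11.5 CPM (4.19 ± 0.37, adjusted p = 2.41e-05). ncam1a was at 72.9 and 84.2 against 7.08 and 6.97 CPM (3.48 ± 0.36).

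Epidermal genes split in 2 directions, which their list median of -0.20 hides. Of 61 tested, 15 were higher in sp7+ cells and 13 were higher in sp7- cells, against 5.87% and 3.14% of all genes. The other 33 were not called. The summed level was 49809 and 52762 CPM in sp7+ cells against 80282 and 102257 CPM in sp7- cells, so epidermal transcripts were abundant in both gates. No gene of the list was at 0 in both sp7+ libraries.

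The 4 epidermal genes with the largest differences toward sp7- cells were col17a1a, krtt1c19e, cldn1 and col17a1b. col17a1a, a collagen of the hemidesmosomes that anchor basal cells, was at 17.5 and 21.0 CPM in sp7+ cells and at 127 and 174 CPM in sp7- cells (-2.97 ± 0.26, adjusted p = 5.44e-05). krtt1c19e, a keratin used as a marker of basal epidermis in zebrafish, was at 16.0 and 16.3 against 109.8 and 131 CPM (-2.90 ± 0.23). cldn1 was at 13.7 and 19.8 against 82.5 and 113 CPM (-2.55 ± 0.29), and col17a1b at 466 and 783 against 2447 and 4001 CPM (-2.37 ± 0.32). tp63, the master regulator of basal keratinocytes, was looked at after its values were seen and was at 68.6 and 80.0 against 307 and 457 CPM (-2.36 ± 0.25).

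The 4 with the largest differences toward sp7+ cells were tmprss13a, krt1-19d, cldne and cldnf. cldne, a claudin of tight junctions in the outermost layer of zebrafish skin, was at 1100 and 938 CPM in sp7+ cells and at 43.6 and 41.1 CPM in sp7- cells, 24.1-fold higher (adjusted p = 2.56e-06). krt1-19d was at 1402 and 1171 against 39.7 and 45.4 CPM (4.92 ± 0.27), and cldnf at 50.2 and 36.6 against 2.66 and 2.94 CPM (3.96 ± 0.28). tmprss13a, a membrane serine protease, was at 10.6 and 4.45 CPM against 0.0621 and 0 CPM. krt4, a keratin of surface epidermis, was at 5326 and 6117 against 1279 and 2011 CPM (1.80 ± 0.29, adjusted p = 0.0224), with adjusted p-values of 0.171 without sp7- replicate 1 and 0.0698 without sp7+ replicate 2. cdh1, the cadherin of all epithelial layers, was close to equal at 119 and 108 against 149.9 and 156 CPM (-0.43 ± 0.22). The list was not divided by layer, so these genes are described singly and no layer was tested. The part of these epidermal transcripts in the other differences was not tested.

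**Figure D3:**
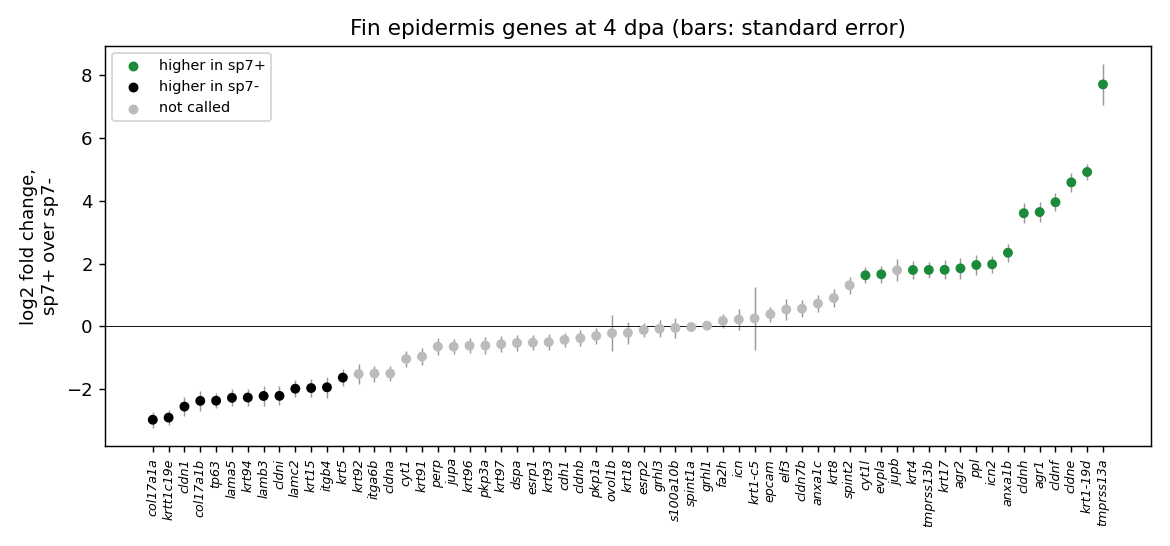
Log2 fold change of sp7+ over sp7- cells at 4 dpa for the 61 epidermal genes, in order of the fold change, with the standard error as a bar where it could be computed. The 13 genes called higher in sp7- cells (black) run from col17a1a at -2.97 to krt5, and the 15 called higher in sp7+ cells (green) run up to tmprss13a at 7.71, whose sp7- libraries held 4 and 0 counts.

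Leukocyte and endothelial genes were mostly lower in the sp7+ gate. Of 40 leukocyte genes, 16 were higher in sp7- cells and 4 were higher in sp7+ cells, against 3.14% and 5.87% of all genes. Their median was -1.75. lcp1, an actin-bundling protein of all leukocytes, was at 6.58 and 8.35 CPM against 51.0 and 44.5 CPM (-2.68 ± 0.32, adjusted p = 0.000698). c1qa and c1qb, the partners of c1qc, were at 0.631 and 0.292 against 6.17 and 5.24 CPM and at 0.915 and 0.560 against 8.90 and 6.52 CPM, and the chemokine receptor gene cxcr3.2 was at 0.474 and 0.243 against 4.30 and 3.71 CPM. All 4 genes were below the sp7- libraries in both sp7+ libraries, without being at 0.

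The 4 leukocyte genes that went the other way were mmp9, cd74b, mhc2dab and ighm. cd74b and mhc2dab, of class II antigen presentation, were at 1250 and 861 against 302 and 351 CPM (1.69 ± 0.26) and at 22.8 and 18.6 against 6.94 and 4.27 CPM (1.88 ± 0.27). The call of cd74b was lost without sp7- replicate 1, sp7- replicate 2 or sp7+ replicate 1 (adjusted p = 0.147, 0.0756 and 0.196), and that of mhc2dab without sp7- replicate 2 or sp7+ replicate 1 (0.156 and 0.0577). ighm, immunoglobulin heavy chain mu, had 54 and 21 counts in sp7+ cells against 1 and 2 in sp7- cells, a ratio of 28.5 (95% counting interval 9.39 to 141). Because of such genes the summed leukocyte level overlapped between the gates, at 4000 and 3828 CPM against 3517 and 4231 CPM.

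Of 18 endothelial genes, 10 were higher in sp7- cells and none was higher in sp7+ cells, against 3.14% and 5.87% of all genes. Their median was -1.88. The receptor tyrosine kinase gene tie1 was at 0.616 and 0.462 CPM against 5.78 and 3.32 CPM (-3.05 ± 0.39, adjusted p = 0.00102). she, an adaptor protein gene, was at 0.126 and 0.073 against 1.35 and 1.28 CPM (-3.63 ± 0.49). The summed endothelial level was 48.0 and 54.3 against 130.1 and 95.7 CPM. No red cell gene was called of 7 tested, where 9.02% of all genes were called. From the 5 genes of ionocytes and mucous cells 1 was called, muc5.2. This gene had 3 and 12 counts in sp7+ cells and none in sp7- cells. In sp7+ replicate 1 it was itself at the floor of 3 counts per library, so no least fold change is given. Its adjusted p of 0.0458 rose to 0.174, 0.153 and 0.218 without sp7- replicate 1, sp7- replicate 2 and sp7+ replicate 2, and to 0.0558 and 0.0579 without either sp7- library at 0 dpa.

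The osteoclast list had 5 genes tested, too few for its counts to be read as a result about the list. Against 5.87% of all genes, 3 of the 5 were higher in sp7+ cells. They were tnfrsf11a, the receptor for the osteoclast-inducing ligand RANKL, at 116 and 107 against 21.6 and 18.7 CPM (2.47 ± 0.24, adjusted p = 0.000231), nfatc1 at 215 and 205 against 63.6 and 68.5 CPM, and mmp9. nfatc1 lost its call when any 1 of the 4 libraries was left out (adjusted p = 0.167 and 0.141 without sp7- replicates 1 and 2, 0.115 and 0.0756 without sp7+ replicates 1 and 2). ctsk, the collagen-degrading protease cathepsin K, was at 265 and 225 against 296 and 297 CPM (-0.27 ± 0.21, not called). acp5b, the remaining gene of the list, was not called either, with a log2 fold change of -0.04. These genes are also expressed outside osteoclasts.

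Several genes of xanthophores and of the neural crest were higher in the sp7+ gate. Of 13 pigment cell genes, 4 were higher in sp7+ cells and 1 in sp7- cells, against 5.87% and 3.14% of all genes. Their median was 0.78 and their summed level was 100.4 and 74.2 CPM against 24.1 and 22.9 CPM. gch2, which starts the pteridine synthesis of yellow pigment cells, was at 15.3 and 17.6 CPM in sp7+ cells and at 0.171 and 0.274 CPM in sp7- cells, 74.0-fold higher (adjusted p = 1.16e-06). aox5, another xanthophore enzyme, was at 12.9 and 9.61 against 0.792 and 0.949 CPM (3.69 ± 0.34). The carotenoid genes bco1 and scarb1 were at 18.0 and 12.3 against 1.46 and 1.57 CPM and at 36.3 and 22.2 against 5.11 and 5.39 CPM. tfec, a transcription factor of early pigment cells and of iridophores, was the 1 gene lower in sp7+ cells, at 0.663 and 0.827 against 3.15 and 3.36 CPM, and its adjusted p of 0.00804 was 0.0528 without sp7- replicate 2 and 0.096 without sp7+ replicate 1.

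Of 12 genes of glia and nerve, 3 were higher in sp7+ cells and none was higher in sp7- cells. Over all genes the shares were 5.87% and 3.14%. sox10, a regulator of neural crest derivatives that include glia and pigment cells, was at 16.7 and 19.4 CPM against 1.48 and 1.08 CPM (3.81 ± 0.28, adjusted p = 6.26e-06). foxd3 was at 5.73 and 3.72 against 0.513 and 0.201 CPM (3.70 ± 0.42), and gfap, an intermediate filament gene of glia, at 13.1 and 12.6 against 2.25 and 2.85 CPM (2.33 ± 0.31). The summed level of the list was not higher in sp7+ cells, at 125.5 and 134.4 against 140.8 and 176.6 CPM. Whether these transcripts came from the cells that express sp7 or from other cells in the green gate was not tested.

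**Figure D4:**
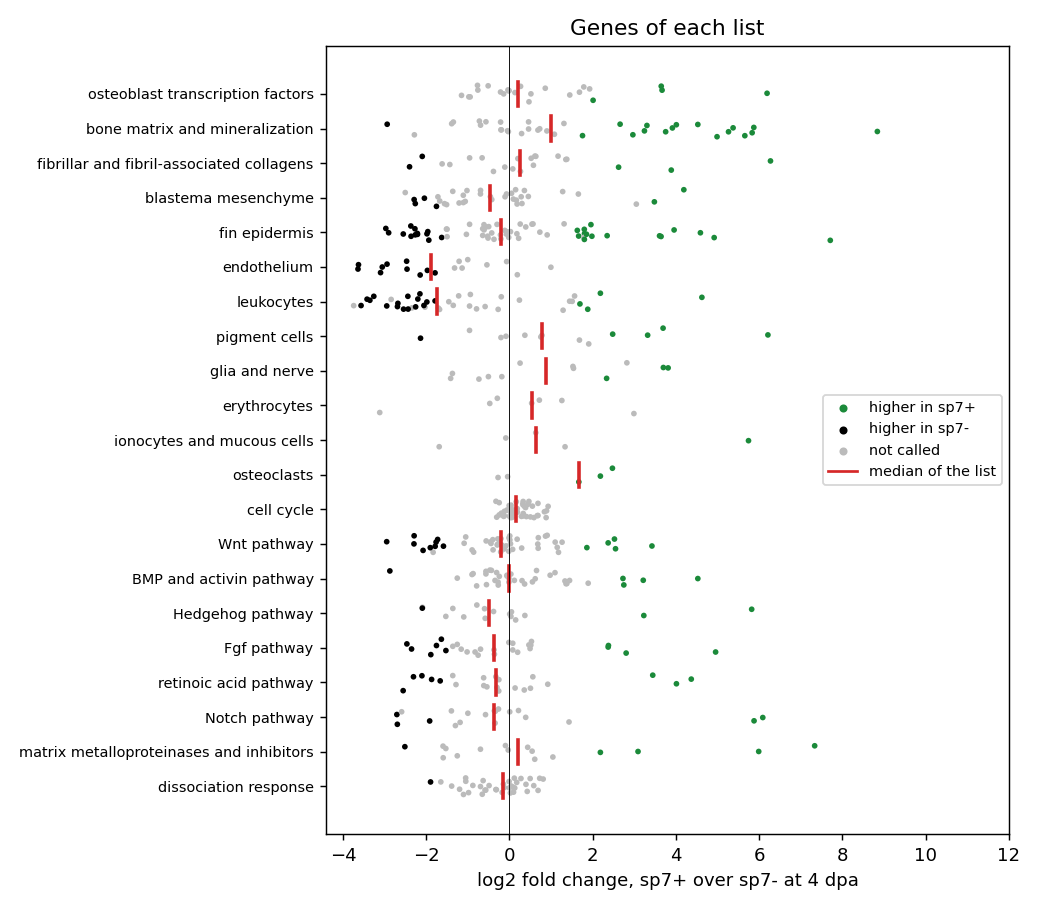
Log2 fold change of sp7+ over sp7- cells at 4 dpa for every tested gene of the 21 lists, with genes called higher in sp7+ cells in green, higher in sp7- cells in black and not called in grey, and the list median as a red line. The bone matrix list (median 0.99) has most of its called genes to the right, the endothelial (-1.88) and leukocyte (-1.75) lists most of theirs to the left, and the cell cycle list (0.16) has none called.

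In the Hedgehog pathway, 2 of 16 genes tested were higher in sp7+ cells and 1 was higher in sp7- cells, with a median of -0.48, where 5.87% and 3.14% of all genes were called. Counts this small are not read as a result about the pathway. ihha, the Indian hedgehog ligand of bone, was at 25 and 31.3 CPM in sp7+ cells and at 0.497 and 0.493 CPM in sp7- cells, 56.5-fold higher (adjusted p = 1.87e-06). The second, ihhb, another Indian hedgehog gene, was at 0.60 and 1.07 against 0.0311 and 0.146 CPM, and its adjusted p of 0.0397 rose to 0.300, 0.0538, 0.0671 and 0.209 without sp7- replicates 1 and 2 and sp7+ replicates 1 and 2. shha, the Sonic hedgehog ligand that basal epidermis secretes, had the opposite order at 0.742 and 1.27 against 3.76 and 4.67 CPM (-2.09 ± 0.47). It was not called in the main fit (adjusted p = 0.0538) or with DESeq2 (0.377). With the inferred replicate pairs as a block the adjusted p was 0.0037. gas1a, a Hedgehog co-receptor gene, was at 12.5 and 16.7 against 63.5 and 61.2 CPM (-2.09 ± 0.27, adjusted p = 0.00291, and 0.0522 without sp7+ replicate 1).

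Of 37 BMP and activin genes, 4 were higher in sp7+ cells and 1 was higher in sp7- cells, with a median of -0.01, where 5.87% and 3.14% of all genes were called. The ligand gene bmp3 was at 8.33 and 7.93 CPM against 0.404 and 0.292 CPM (4.53 ± 0.34, adjusted p = 6.82e-06). bmp8a was at 44.6 and 50.9 against 5.53 and 8.89 CPM (2.73 ± 0.35). inhbb, which encodes the beta B subunit of inhibins and activins, was at 45.1 and 52.4 against 5.19 and 5.31 CPM (3.21 ± 0.25, adjusted p = 1.7e-05). bmp7a, a ligand gene at 1.5 and 1.92 against 0.264 and 0.237 CPM, had an adjusted p of 0.00766, which was 0.0614 and 0.0795 without sp7- replicates 1 and 2 and 0.0502 without sp7+ replicate 2. The extracellular antagonist noggin went the other way, with nog1 at 6.76 and 13.0 against 77.7 and 66.5 CPM (-2.87 ± 0.29, adjusted p = 0.000204). bmp2a was at 23.6 and 22.9 against 21.1 and 27.3 CPM, with overlapping libraries (-0.06 ± 0.28).

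Of 50 Wnt genes, 5 were higher in sp7+ cells and 9 were higher in sp7- cells, against 5.87% and 3.14% of all genes. Their median was -0.20. wnt5a, a ligand of the non-canonical branch, was at 28.2 and 45.0 CPM in sp7+ cells and at 191 and 166 CPM in sp7- cells (-2.29 ± 0.28, adjusted p = 0.00136). The receptor gene fzd9a was at 1.07 and 0.852 against 8.87 and 6.13 CPM (-2.95 ± 0.38). On the sp7+ side, wnt1 was at 1.22 and 1.56 against 0.124 and 0.128 CPM (3.42 ± 0.46), and notum1a, which inactivates Wnt ligands outside the cell, at 20.9 and 19.7 against 2.73 and 4.33 CPM (2.52 ± 0.39, adjusted p = 0.00472, and 0.0562 without sp7- replicate 1). rspo2, which enhances Wnt signalling, was at 7.50 and 6.69 against 1.30 and 1.11 CPM (2.55 ± 0.42, adjusted p = 0.00731, and 0.076 without sp7- replicate 2). lef1, a nuclear effector and target of the pathway, was at 32.8 and 39.2 against 67.0 and 86.2 CPM, a difference of -1.09 ± 0.27 that was not called against a 2-fold change (adjusted p = 0.785).

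Of 27 Fgf genes, 4 were higher in sp7+ cells and 6 were higher in sp7- cells, against 5.87% and 3.14% of all genes. Their median was -0.37. fgfbp2a, a secreted Fgf-binding protein gene, was at 61.9 and 74.1 CPM against 2.53 and 1.84 CPM, 31.0-fold higher in sp7+ cells (adjusted p = 3.22e-07). The receptor genes fgfr3 and fgfr4 were at 29.4 and 26.6 against 5.93 and 4.87 CPM (2.37 ± 0.24) and at 22.3 and 13.6 against 3.25 and 1.88 CPM (2.80 ± 0.40). The ligand genes named by the rule were on the sp7- side. On the sp7+ side was fgf13b, an Fgf family gene whose product is not secreted and is not counted here as a ligand. It was at 2.64 and 3.65 against 0.683 and 0.511 CPM (adjusted p = 0.0126), and its adjusted p was 0.0582 and 0.130 without sp7- replicates 1 and 2 and 0.0686 without sp7+ replicate 2. fgf20a, the ligand that starts blastema formation in the zebrafish fin, was at 2.95 and 3.82 against 15.9 and 18.6 CPM (-2.35 ± 0.28, adjusted p = 0.00116). fgf18a was at 0.489 and 1.24 against 4.49 and 4.75 CPM (-2.46 ± 0.41, adjusted p = 0.00766, and 0.115 without sp7+ replicate 1). fgf24 was at 1.03 and 0.876 against 3.03 and 3.43 CPM, and its adjusted p of 0.0314 rose to 0.118, 0.183, 0.094 and 0.185 without sp7- replicates 1 and 2 and sp7+ replicates 1 and 2.

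Of 22 retinoic acid genes, 3 were higher in sp7+ cells and 5 were higher in sp7- cells, against 5.87% and 3.14% of all genes. Their median was -0.31. aldh1a3, a retinaldehyde dehydrogenase that makes retinoic acid, was at 78.4 and 112 CPM in sp7+ cells and at 6.57 and 5.2 CPM in sp7- cells (4.01 ± 0.26, adjusted p = 1.97e-06). stra6, a retinol uptake receptor, was at 4.77 and 7.30 against 0.202 and 0.383 CPM (4.37 ± 0.42), and dhrs3b, which turns retinaldehyde back to retinol, at 28.3 and 20.6 against 2.28 and 2.21 CPM (3.44 ± 0.31). cyp26b1, which degrades retinoic acid, was at 12.5 and 15.0 against 78.5 and 82.7 CPM (-2.55 ± 0.26, adjusted p = 0.000281). cyp26c1, of the same enzyme family, was at 10.1 and 6.52 against 33.1 and 27.6 CPM (-1.87 ± 0.27, adjusted p = 0.0115), and its adjusted p was 0.131 without sp7- replicate 1 and 0.159 without sp7+ replicate 2.

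Of 19 Notch genes tested, 2 were higher in sp7+ cells and 3 were higher in sp7- cells, with a median of -0.36. Over all genes the shares were 5.87% and 3.14%, and counts this small are not read as a result about the pathway. The ligand gene dld was at 11.6 and 8.08 CPM in sp7+ cells and at 0.171 and 0.110 CPM in sp7- cells, 67.9-fold higher (adjusted p = 5.6e-06). The target heyl was at 33.4 and 35.6 against 0.652 and 0.511 CPM, 58.7-fold higher (adjusted p = 1.47e-06). The ligand jag1a was at 25.6 and 28.9 against 168 and 184 CPM (-2.69 ± 0.27, adjusted p = 0.000245), and her15.1, a target in zebrafish, at 13.8 and 20.2 against 117 and 104 CPM (-2.70 ± 0.29).

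Among 16 matrix metalloproteinases and their inhibitors, 4 were higher in sp7+ cells and 1 was higher in sp7- cells. Over all genes the shares were 5.87% and 3.14%. mmp9, a gelatinase of leukocytes, osteoclasts and wounded epithelium, was at 269 and 188 CPM in sp7+ cells and at 56.0 and 44.3 CPM in sp7- cells (2.18 ± 0.37, adjusted p = 0.0128). Its adjusted p was 0.111 without sp7- replicate 2 and 0.0913 without sp7+ replicate 1. The other 3 had few reads. mmp20b had 90 and 43 counts in sp7+ cells against 2 and 0 in sp7- cells, a ratio of 75.9 (95% counting interval 20.6 to 633), and its adjusted p of 0.00732 was 0.0608 without sp7- replicate 2. mmp19 had 35 and 15 counts against none, at least 9.05-fold higher against a floor of 3 counts per library, and its adjusted p of 0.00604 was 0.0588 without sp7- replicate 1 and 0.0558 without sp7+ replicate 1. mmp20a had 17 and 8 counts against 2 and 1, a ratio of 9.51 (2.90 to 49.2), and its adjusted p of 0.0476 was 0.0554 with the replicate pairs as a block. That call was also lost without any 1 library at 4 dpa (0.168 and 0.267 without sp7- replicates 1 and 2, 0.219 and 0.0695 without sp7+ replicates 1 and 2) and without either sp7- library at 0 dpa (0.0749 and 0.0796). The 1 gene higher in sp7- cells was mmp30, at 0.537 and 0.146 against 1.82 and 2.39 CPM (adjusted p = 0.0122, and 0.0689 without sp7- replicate 2 and 0.111 without sp7+ replicate 2).

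No difference in proliferation genes passed the test against a 2-fold change at 4 dpa. None of 47 cell cycle genes was called in either direction, against 9.02% of all genes. Their log2 fold changes lay between -0.32 and 0.93 with a median of 0.16, and 34 were above 0. All were within 2-fold, so this test could not call smaller differences. mki67, a marker of cycling cells, was at 24.1 and 21.6 CPM in sp7+ cells and at 15.5 and 12.9 CPM in sp7- cells (0.69 ± 0.30), and the test against no difference gave an adjusted p of 0.133. mcm5, of the replicative helicase, was at 21.6 and 23.5 against 27.4 and 26.1 CPM (-0.25 ± 0.24). The summed level was 1114 and 1402 CPM in sp7+ cells, on either side of 1255 and 1254 CPM in sp7- cells.

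Immediate early and heat shock genes, which digestion of tissue is known to raise, were compared between the gates too. Of 37 tested, 1 was called, against 9.02% of all genes, and a count this small is not read as a result about the list. The called gene was dusp2, at 64.8 and 61.0 CPM against 228 and 239.7 CPM (-1.89 ± 0.27, adjusted p = 0.00956). The list median was -0.14, and the log2 fold changes of the uncalled genes lay between -1.65 and 0.81. The call of dusp2 was lost when any 1 of the 4 libraries was left out (adjusted p = 0.053 and 0.0552 without sp7- replicates 1 and 2, 0.0585 and 0.0794 without sp7+ replicates 1 and 2). The summed level was 43588 and 42206 CPM in sp7+ cells and 47786 and 46116 CPM in sp7- cells.

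The difference between sp7+ and sp7- cells was then compared with the same difference in the uninjured fin, as an interaction in the same edgeR fit and against no difference. Of the 18641 genes, 1474 were called, or 7.91%, and 869 of them had the more positive difference at 4 dpa. Among the 1095 genes higher in sp7+ cells at 4 dpa, 145 were called in this second test, with a larger difference at 4 dpa in 79. Among the 586 genes higher in sp7- cells, 67 were called, with a more negative difference at 4 dpa in 23. With the replicate pairs as a block the interaction was called in 3391 genes. Without 1 library at 4 dpa the count was 227 and 226 (sp7- replicates 1 and 2) and 751 and 694 (sp7+ replicates 1 and 2), and at 0 dpa it was 752 without sp7- replicate 2, 974 without sp7+ replicate 1 and 2553 without sp7+ replicate 2.

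The gate gene sp7 and the matrix and bone genes spp1, bglap, col10a1a, ifitm5, panx3 and col11a2 were higher in sp7+ cells on both days. sp7 was at 30.0 and 31.9 CPM in sp7+ cells and at 0.252 and 0.145 CPM in sp7- cells at 0 dpa, and the change in its difference was -1.12 ± 0.47 (adjusted p = 0.161). spp1, at 150.5 and 397 against 2.74 and 3.74 CPM at 0 dpa, changed by -1.13 ± 0.52, also not called. bglap was at 17.4 and 113 CPM in sp7+ cells and at 0.283 and 0.193 CPM in sp7- cells at 0 dpa. col10a1a was at 1770 and 5613 against 34.4 and 57.0 CPM. Their differences changed by -4.19 ± 1.19 and -2.32 ± 0.66 without being called (adjusted p = 0.0513 and 0.0511). ifitm5 and panx3 rested near zero in sp7- cells at 0 dpa, at 0.157 and 0.507 CPM and at 0 and 0.0724 CPM, and their differences changed by -2.15 ± 0.64 and -3.06 ± 1.1 without being called (adjusted p = 0.0586 and 0.0945). col11a2 was called, with a difference smaller at 4 dpa by -2.55 ± 0.58 (adjusted p = 0.0236), as its sp7- libraries stood at 4.44 and 5.14 CPM at 0 dpa and at 117 and 181 CPM at 4 dpa. Its interaction lost the call without either sp7- library at 0 dpa, either sp7- library at 4 dpa or sp7+ replicate 1 at 4 dpa (adjusted p = 0.0566, 0.0542, 0.0524, 0.104 and 0.0874).

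Cell cycle genes were where the days differed most often among the lists. The interaction, tested against no difference and not against 2-fold, was called in 19 of 47, where 7.91% of all genes were called. The difference was more positive at 4 dpa in 18 and more negative in 1. At 0 dpa the median log2 fold change of the 47 genes was -1.50, against 0.16 at 4 dpa. mki67 was at 1.07 and 2.03 CPM in sp7+ cells against 3.65 and 6.47 CPM in sp7- cells of the uninjured fin, so that sp7+ cells were the lower population at 0 dpa and not at 4 dpa, a change of 2.39 ± 0.46 (adjusted p = 0.0126, and 0.0731 without sp7- replicate 2 at 4 dpa). mcm5 was at 6.61 and 10.8 against 28.6 and 34.2 CPM at 0 dpa, a change of 1.60 ± 0.35 (adjusted p = 0.0194). Its sp7+ level was the one that differed between the days, while the sp7- libraries at 4 dpa, 27.4 and 26.1 CPM, were close to those at 0 dpa. The interaction of mcm5 lost its call without sp7- replicate 2 at 0 dpa or either sp7- replicate at 4 dpa (adjusted p = 0.0553, 0.0826 and 0.109).

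inhbb had the smallest adjusted p for a change between the days among the named signalling genes. It was at 9.23 and 14.0 CPM in sp7+ cells and at 9.91 and 10.6 CPM in sp7- cells at 0 dpa, where the libraries overlapped, and its difference grew by 3.04 ± 0.34 at 4 dpa (adjusted p = 0.0012). mmp9 reversed, from 16.0 and 41.2 CPM in sp7+ cells against 75.0 and 101 CPM in sp7- cells at 0 dpa to the higher sp7+ level at 4 dpa, a change of 3.81 ± 0.53 (adjusted p = 0.0028). krt4 had a smaller difference at 4 dpa, by -2.94 ± 0.40 (adjusted p = 0.00271), with 35992 and 29420 CPM in sp7+ cells and 1149 and 1297 CPM in sp7- cells at 0 dpa. The sp7+ level of krt4 was lower at 4 dpa and its sp7- level was similar. The surface epidermal gene cldne kept its difference, at 10544 and 6570 against 319.7 and 255 CPM at 0 dpa (change -0.31 ± 0.38, adjusted p = 0.662).

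**Figure D5:**
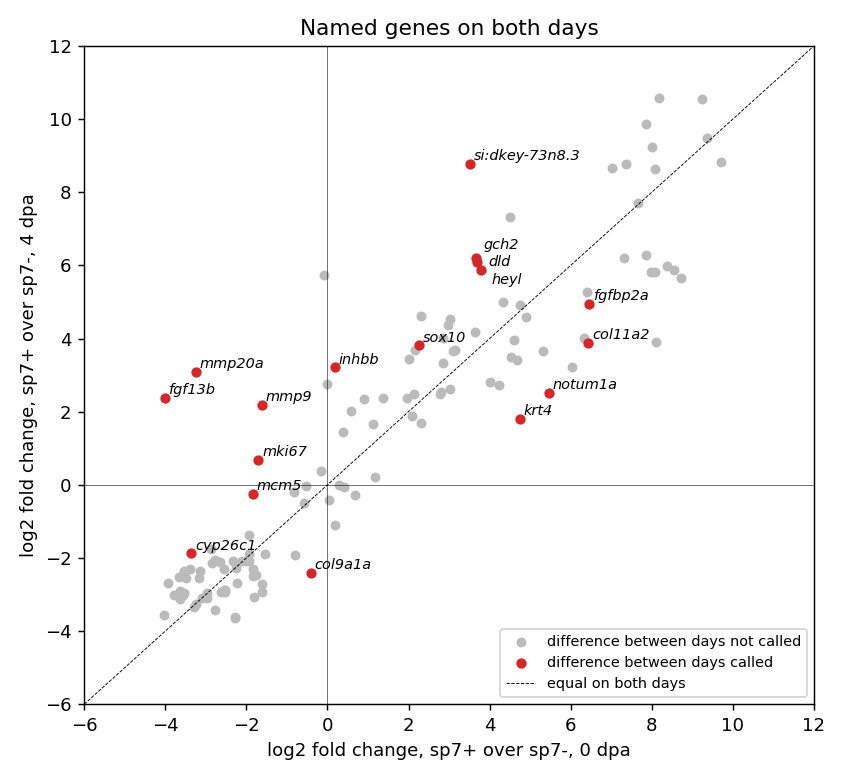
Log2 fold change of sp7+ over sp7- cells at 0 dpa (x axis) and at 4 dpa (y axis) for the 128 named genes, with the 17 whose difference between the days was called in red and named. Points on the dashed line have equal differences on both days. mki67 lies at a negative value at 0 dpa and a positive one at 4 dpa, inhbb lies near 0 at 0 dpa, and krt4 and notum1a lie below the line.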

How the data were processed

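RNA-seq read counts per gene were deposited by the authors for sp7+ and sp7- cells of the fin at 0 and 4 dpa. Per the submitters' notes and the study's methods, reads were aligned with STAR 2.5.2a to GRCz10 and uniquely placed reads were counted with featureCounts 1.5.0 over Ensembl genes, without strand and with a read over several genes counted for each, so overlapping and antisense genes share reads. The remaining table of the series was not used here.

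Genes were filtered with filterByExpr, scaled by TMM and fitted with edgeR 4.0.16 (R 4.3.3, limma 3.58.1) over the 8 sorted libraries. TMM factors of the 4 libraries at 4 dpa were 1.10 to 1.28. The comparison at 4 dpa was tested against a 2-fold change (glmTreat) and the difference between days against none (glmQLFTest), both with Benjamini-Hochberg adjustment over all 18641 genes at 0.05. The scripts were tested on simulated data. Figures were drawn with matplotlib 3.10.9. DESeq2 1.42.0, other scalings, other filters, a replicate block and leaving out each library were tried as alternatives. Replicates at 4 dpa differed beyond counting noise, with a chi-square per degree of freedom of 105 in sp7+ and 25.8 in sp7- cells. Their log2 CPM values correlated across genes at Pearson r of 0.983 in sp7+ and 0.992 in sp7- cells.

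The labels give replicate numbers only. From the study's methods, which describe sorting both gates from the tissue collected for a replicate, same-numbered libraries were taken to share a pool. This pairing is inferred, and with 2 pairs a day the data do not settle it. The deviations from the group means of same-numbered libraries correlated at 0.13 at 4 dpa and 0.262 at 0 dpa, across genes.

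Symbols were found for 26614 of 32105 gene identifiers, 5349 from name columns of the study's tables and 21265 from a reference gene table, without regard to case. Named genes were sp7, the 10 called genes with the largest fold change each way at 10 CPM or more without overlap between the gates, up to 4 called genes each way from each of 21 lists, and key members whatever their value. The members and lists were chosen with earlier results of these data known. Intervals and floors of counts cover counting error only. Some members of the lists are counted but not reported here by name.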

Additional observations from a re-analysis of the deposited data

Results flagged for a closer look

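In 17 named genes the difference between sp7+ and sp7- cells was not the same at 4 dpa as at 0 dpa, by the interaction term of edgeR's quasi-likelihood test with Benjamini-Hochberg adjustment over all genes. Values are the log2 fold change at 4 dpa minus that at 0 dpa. Tissue and digestion differed between the days too, and their part in these changes cannot be told apart from that of the day.

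The change was positive in most of them. It was 2.39 for mki67 (adjusted p = 0.0126) and 1.60 for mcm5 (0.0194), both cell cycle genes, with calls lost without sp7- replicate 2 at 4 dpa for mki67 (0.0731) and without 3 libraries in turn for mcm5 (0.0553 to 0.109). Among genes of the pathway lists it was 3.04 for inhbb (0.0012), 6.39 for fgf13b (0.00174), 2.39 for dld (0.0471) and 2.09 for heyl (0.0365). The change was 1.49 for cyp26c1 (0.039), which was lower in sp7+ cells on both days, by a smaller margin at 4 dpa. Leaving out 1 library in turn, the call of dld was lost in 7 of 8 cases, all but sp7+ replicate 2 at 0 dpa (0.0566 to 0.181). That of heyl was lost in 6, all but sp7- replicate 2 and sp7+ replicate 2 at 0 dpa (0.053 to 0.161). That of cyp26c1 was lost in 5, without sp7- replicate 1 or sp7+ replicate 1 at 0 dpa and without sp7- replicate 1, sp7- replicate 2 or sp7+ replicate 1 at 4 dpa (0.0592 to 0.174). For the proteinases mmp9 and mmp20a it was 3.81 (0.0028) and 6.34 (0.00453). The fitted values of mmp20a, fgf13b and si:dkey-73n8.3 rest on very few reads in at least 1 group and depend on the prior count, so their size is not a measure of the change. For mmp20a the sp7- libraries at 4 dpa held 2 and 1 counts and the sp7+ libraries at 0 dpa were at 0.0444 and 0.199 CPM. For the neural crest and pigment genes gch2 and sox10 it was 2.53 (0.0159) and 1.55 (0.0376), and for the unnamed locus si:dkey-73n8.3 it was 5.25 (0.00137). The call of sox10 was lost in 6 of the 8 cases, all but those of the sp7+ libraries at 0 dpa (0.05 to 0.181). That of gch2 was lost in 3, without sp7- replicate 2 at 0 dpa or either sp7- library at 4 dpa (0.0687, 0.0871 and 0.0558).

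The others had a negative change. It was -2.94 for krt4 (adjusted p = 0.00271), -2.93 for notum1a (0.0153), -1.51 for fgfbp2a (0.0209), -2.55 for col11a2 (0.0236) and -1.99 for col9a1a (0.0164). The first 4 were higher in sp7+ cells on both days by a smaller margin at 4 dpa, while col9a1a was near equal at 0 dpa and lower in sp7+ cells at 4 dpa. The call of notum1a was lost without sp7- replicate 2 at 0 dpa, sp7- replicate 2 at 4 dpa or sp7+ replicate 2 at 4 dpa (0.0547, 0.0703 and 0.0531). That of fgfbp2a was lost without sp7- replicate 1 at 0 dpa, either sp7- library at 4 dpa or sp7+ replicate 1 at 4 dpa (0.0567, 0.143, 0.0563 and 0.0697). That of col9a1a was lost without sp7- replicate 2 at 0 dpa, either sp7- library at 4 dpa or sp7+ replicate 1 at 4 dpa (0.0506, 0.0899, 0.0625 and 0.0512). That of col11a2 was lost in 5 cases (0.0524 to 0.104).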

How the results depend on the processing

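Of 112 named genes called at 4 dpa, 79 kept direction and call under all 18 alternatives. DESeq2 called 1085 genes, 292 of them higher in sp7- cells. Filtering at 2-fold after a test against no difference gave 3432 calls (1965 higher in sp7+ and 1467 in sp7- cells). A false discovery rate of 0.01 gave 1097, with 315 higher in sp7- cells, and 223 calls between days. The calls between days were 821 with library totals alone and 2715 without a filter on low counts. With the replicate pairs as a block, 1985 genes were called at 4 dpa (1226 higher in sp7+, 759 in sp7- cells) and 3391 between days, and among named genes at 4 dpa the block changed only the calls of and2, shha and mmp20a. With only the 4 libraries at 4 dpa and a block, an alternative chosen after seeing the data, 2217 were called.

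Leaving out 1 library in turn gave 1036 to 1876 calls at 4 dpa, with 727 to 1189 higher in sp7+ and 291 to 687 higher in sp7- cells, and 226 to 2553 between days. Signs turned in uncalled genes near 0. dlx5a became 0.0174 with DESeq2, 0.0173 with its size factors and 0.0279 with a stricter filter, and ranged from -0.11 to 0.20 when 1 library was left out. msx1b became 0.0019 with a stricter filter and ranged from -0.14 to 0.13. The same ranges were -0.18 to 0.13 for bmp2a, -0.31 to 0.0321 for alpl and -0.16 to 0.59 for col1a1a. The causes were not tested. With 2 libraries a group and few counts in the lower gate, fold changes of the rarest transcripts are imprecise.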
